A study of Arabidopsis thaliana with 16 samples.

Results

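Ribosome footprints of heat-treated fust1 seedlings were set against those of heat-treated Col-0 seedlings. The comparison uses 4 of the 16 libraries of the study, chosen by their labels alone: 2 Ribo-seq libraries of fust1 at 37 °C and 2 of Col-0 at 37 °C, with each of the 27628 counted genes entering. All plants were whole Arabidopsis thaliana seedlings, 10 days old. Col-0 is the wild type, and fust1 is a mutant named for the gene FUST1, whose allele is not given in the sources used here. The other groups, again with 2 libraries each, were footprints of fust1 and of Col-0 at 22 °C, and poly(A) RNA of both genotypes at both temperatures. They are used here to place the difference at 37 °C. The title of the study concerns FUST1 as a switch of translation in heat, and this comparison asks which mRNAs carried more or fewer ribosomes in the mutant under heat. The length of the heat treatment is not given in the sources used here. FUST1 did not match the name table used here, so its own level could not serve as a check of the genotype labels.

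A footprint is the stretch of mRNA that a ribosome shields from nuclease. Its count for a gene grows with the amount of that mRNA and with the number of ribosomes on each copy. In plants, heat activates the heat shock factors, which switch on the genes of the heat shock proteins, while ribosomes leave many other mRNAs, some of which gather in stress granules with RNA-binding proteins. Values below are CPM, counts relative to a library's total after that total was scaled by TMM, which assumes that most genes keep their share. A change in the total amount of translation therefore does not show in them. For footprints at 37 °C the TMM factors were 0.563 and 0.614 in fust1 and 0.489 and 0.532 in Col-0. Footprint CPM at 37 °C are thus larger than shares of all counts, which are given in percent where named.

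Sequencing was uneven between the genotypes. The fust1 libraries at 37 °C held 9785425 and 11927823 counts, and the Col-0 libraries 6271023 and 6175906. Of the 18445 genes that passed the filter on low counts, 857 and 568 had no count in the fust1 libraries, against 1818 and 1515 in the Col-0 libraries. The gene lists of the heat response took 47.0% and 46.4% of all footprints in fust1, and 49.0% and 46.4% in Col-0. Markers of root, shoot epidermis, vasculature and photosynthesis were all present, and CRA1, a seed storage protein gene, was near 0 in both genotypes, with 1.63 and 1.64 CPM in fust1 and 1.63 and 1.22 CPM in Col-0. Because these are bulk seedlings, fewer cells of a type and less RNA per cell cannot be told apart. No label says that the replicates came from separate cultures, although the series calls them biological, so p-values measure the spread between these libraries.

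At 37 °C, 1127 genes (6.11% of those tested) had more footprints in fust1 than in Col-0 and 853 (4.62%) had fewer, by edgeR's quasi-likelihood test at a Benjamini-Hochberg adjusted p under 0.05. The median size of the called differences was 1.02 on the log2 scale. A change of at least 2-fold was found for 726 of the higher genes (3.94% of those tested) and 287 of the lower ones (1.56%). The genes called higher had a median level of 16.4 CPM in fust1 and 7.19 CPM in Col-0. Those called lower had a median of 28.9 CPM in fust1 and 51.0 CPM in Col-0, against 5.93 and 5.41 CPM over all tested genes. In 49 of the 1127 genes called higher no Col-0 library held a count, and in 1 of the 853 genes called lower no fust1 library did. Over all 18445 tested genes, 865 had no count in Col-0 and 269 had none in fust1. The nuclear chromosomes had similar shares, with 5.75% to 6.53% of tested genes called higher and 3.98% to 5.23% called lower on each. Of the 73 tested plastid genes 0 were higher and 28 lower. The split between directions rests on the scaling: with library totals in place of TMM, 1838 genes were higher and 337 lower, and the median difference over all genes was 0.26 on the log2 scale, against 0.06 with TMM. Leaving out Col-0 replicate 1 reduced the counts to 515 higher and 265 lower. Without fust1 replicate 2 there were 839 and 358, and without Col-0 replicate 2 there were 1162 and 479.

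**Figure D1:**
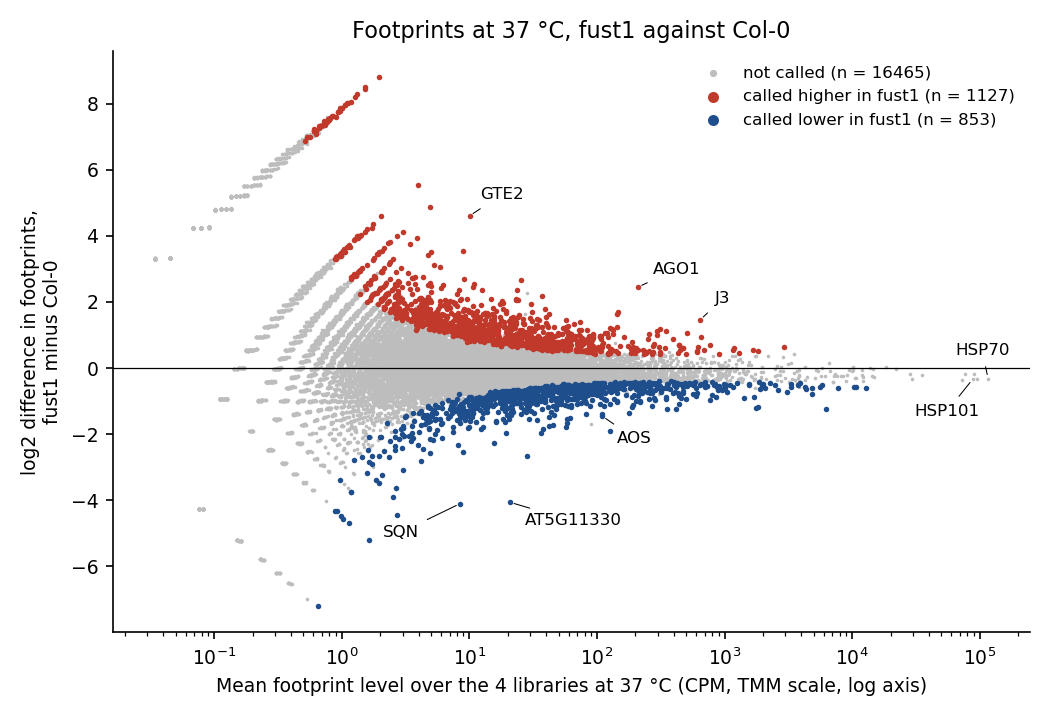
Each point is 1 of the 18445 tested genes, with its mean footprint level over the 4 libraries at 37 °C on a log axis (CPM, TMM scale) and its fitted log2 difference, fust1 minus Col-0, on the vertical axis. Red points are the 1127 genes called higher in fust1 and blue points the 853 called lower, while the abundant HSP70 and HSP101 lie close to 0; the slanted bands at low levels are genes with few or no counts in a group.

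The strongest rises among genes of at least 10 CPM were mostly in genes with few footprints in heated Col-0. GTE2, a global transcription factor of group E, had 17.3 and 21.3 CPM in fust1 and 1.31 and 0.304 CPM in Col-0. The difference was 4.60 ± 0.49 on the log2 scale (SE, n = 2 each; edgeR adjusted p = 7.7e-07). DRH1, a DEAD-box RNA helicase, had 10.9 and 10.1 CPM in fust1, against 1.31 and 1.22 CPM in Col-0, a difference of 3.05 ± 0.42 (edgeR adjusted p = 2.47e-05). The largest rises and falls were picked among called genes whose libraries did not overlap between the genotypes, so that separation is no result. The mRNA of GTE2 and DRH1 was close between genotypes. GTE2 had 825 and 1002 RNA CPM in fust1 and 1026 and 1003 in Col-0, and DRH1 had 210 and 236 in fust1 and 245 and 247 in Col-0. AT2G16940 moved in the same way, with 16.5 and 20.4 footprint CPM in fust1 and 2.61 and 3.65 CPM in Col-0 (difference 2.56). SVR3, known from a suppressor screen of leaf variegation, had 15.1 and 12.6 CPM in fust1 and 2.61 and 2.74 CPM in Col-0 (2.36). CYP712A1, a cytochrome P450, had 47.2 and 41.3 CPM in fust1 and 5.22 and 8.52 CPM in Col-0 (2.67). BCB, a blue copper binding protein, had 15.3 and 20.5 CPM in fust1 and 3.59 and 3.04 CPM in Col-0 (2.44). The other genes among the 12 largest rises were AT4G33720, AT5G19890, AT3G07660, AGT3 (alanine:glyoxylate aminotransferase 3) and AT4G10270, with differences between 2.37 and 3.54, and AGO1. No alternative setting ended the call of any of these 12.

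AGO1, the Argonaute protein that carries most plant microRNAs to their targets, had the smallest p of the rises. It held 332 and 377 footprint CPM in fust1 and 70.8 and 59.0 CPM in Col-0, a difference of 2.45 ± 0.15 (n = 2 each; edgeR adjusted p = 2.58e-11). Both fust1 libraries lay far above both Col-0 libraries, and its mRNA had 505 and 420 CPM in fust1 and 276 and 225 CPM in Col-0 (difference 0.88, adjusted p = 0.148, not called). SQN moved the other way. This gene encodes SQUINT, the cyclophilin 40 that is known in Arabidopsis as a co-chaperone needed for full AGO1 activity, and it had 0.545 and 1.23 footprint CPM in fust1, against 10.1 and 21.9 CPM in Col-0 (difference −4.10 ± 0.48, edgeR adjusted p = 3.73e-06). Its mRNA was nearly lacking in fust1, with 0.389 and 0.247 CPM against 61.5 and 59.8 CPM in Col-0, and at 22 °C its footprints were at 0 and 0.0366 CPM in fust1 and 7.29 and 7.13 CPM in Col-0. SQN had been picked with earlier results of these libraries known, so its values are a description. Of the 17 tested genes of the list of small RNA pathway genes and miR156 targets, 3 were higher and 0 lower, against 6.11% and 4.62% of all tested genes. The other two rises were SGS3, which works in the making of trans-acting small RNAs, with 4.18 and 5.19 CPM in fust1 and 1.96 and 1.22 CPM in Col-0, and SPL11, a target of miR156. SPL11 had 2.18 and 1.64 CPM in fust1 and no count in Col-0, which makes it at least 4.04-fold higher with 3 counts over the group as the floor. The median of the list was 0.94, or 0.87 with genes that lack counts in a group set at such bounds, against 0.06 over all genes. Without Col-0 replicate 1 the count was 1, AGO1, and without fust1 replicate 1 it was 5.

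The largest falls other than SQN began with AT5G11330, which had 2.72 and 2.05 CPM in fust1 and 38.5 and 40.2 CPM in Col-0 (difference −4.06 ± 0.28, n = 2 each; edgeR adjusted p = 1.91e-10). Its libraries stood more than 10-fold apart between the genotypes, and its mRNA was lower as well, at 9.99 and 13.5 CPM in fust1, against 39.0 and 48.3 CPM in Col-0. The ethylene-responsive factor ERF2 had 15.6 and 14.1 CPM in fust1 and 68.9 and 47.8 CPM in Col-0 (difference −1.98). ERF13, of the same family, had 5.63 and 5.19 CPM in fust1 and 36.2 and 15.5 CPM in Col-0 (−2.25), a call that ended without Col-0 replicate 1. CYP94B1, which oxidises the jasmonate hormone, had 3.81 and 1.78 CPM in fust1 and 13.7 and 13.4 CPM in Col-0 (−2.33). The exocyst subunit EXO70H7 was the most abundant of these genes, with 63.0 and 44.5 CPM in fust1 and 230 and 170 CPM in Col-0 (−1.90 ± 0.17, edgeR adjusted p = 5.76e-08). The glutathione S-transferase GSTF11 had 7.63 and 8.20 CPM in fust1 and 31.0 CPM in each Col-0 library (−1.97). The remaining 5 of the 12 largest falls were AT1G14250, AT4G22485, AT3G50800, the plastid gene ATCG01010 and JAZ6. The call of AT4G22485 ended with each of the 4 libraries at 37 °C left out in turn.

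**Figure D2:**
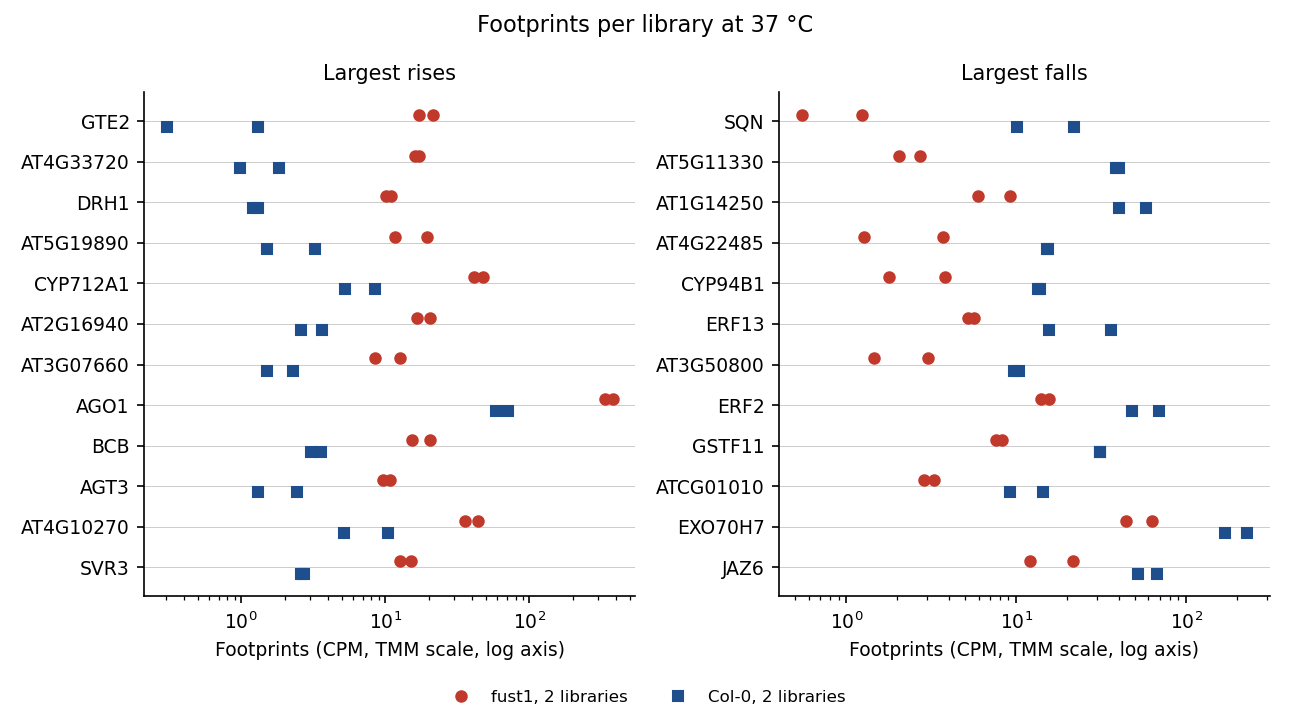
Footprint levels per library at 37 °C on log axes (CPM, TMM scale) for the 12 largest called rises and the 12 largest called falls among genes of at least 10 CPM, with fust1 as red circles and Col-0 as blue squares, 2 libraries each. Genes were picked so that both fust1 libraries lie on the same side of both Col-0 libraries. AGO1 lies at 332 and 377 CPM in fust1 and at 70.8 and 59.0 CPM in Col-0.

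The most abundant heat shock mRNAs did not pass the test of a difference between the genotypes. HSP70 had the most footprints in fust1, 109350 and 97583 CPM, against 136640 and 121460 CPM in Col-0, and its difference of −0.32 did not pass the test (edgeR adjusted p = 0.275). Hsp70b, HSP90.1, HSP101 and AT2G29500 made up the rest of the 5 highest levels, with differences between −0.34 and −0.19 and adjusted p-values between 0.389 and 0.807, so none was called. None of the 17 small heat shock protein genes passed the test in either direction by edgeR or by DESeq2, and 0 had an unadjusted edgeR p under 0.05. Their median difference was −0.16, and 6 of 17 had both fust1 libraries below both Col-0 libraries, against 21.8% of all tested genes. On the TMM scale their summed footprints were 330978 and 286427 CPM in fust1 and 375881 and 333687 CPM in Col-0. As shares of all counts the sums overlapped, with 18.62% and 17.58% in fust1 and 18.36% and 17.76% in Col-0.

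Chaperones of the organelles and some helpers differed. Counts in this paragraph are to be read against 6.11% higher and 4.62% lower over all tested genes. Among 22 HSP70, HSP90 and HSP100 genes, 5 were higher, 1 was lower and the median was 0.00. CR88, the HSP90 of the plastid, had 436 and 519 CPM in fust1 and 197 and 243 CPM in Col-0, a difference of 1.12 ± 0.14 (n = 2 each; edgeR adjusted p = 1.11e-05). The plastid HSP70 proteins cpHsc70-1 and cpHsc70-2 were higher by 0.87 and 0.72, and Hsp89.1, the HSP90 of mitochondria, by 0.75. The fifth rise was HSP91 (0.97), and the fall was Hsp70-2 (−0.60). Without Col-0 replicate 1 the 5 rises became 2. J3, a DnaJ co-chaperone of HSP70, had 832 and 1059 CPM in fust1 and 269 and 419 CPM in Col-0, a difference of 1.46 ± 0.17 (edgeR adjusted p = 4.2e-06). Both fust1 libraries of J3 lay above both Col-0 libraries, whereas its mRNA had 2893 and 3049 CPM in fust1 and 3191 and 3278 CPM in Col-0. Of 15 co-chaperone genes, HSA32 and SGT1A were also higher, and BAG6 was lower besides SQN. Without Col-0 replicate 1 the 3 rises of this list became 1. The endoplasmic reticulum list had 3 rises and 0 falls of 20. BZIP28, the membrane-bound sensor of unfolded proteins, had 77.9 and 79.9 CPM in fust1 and 35.9 and 46.6 CPM in Col-0 (difference 0.93), and the lectin chaperones CRT1b and CNX1 were higher by 0.68 and 0.62. Of the 17 heat shock factors, 1 was higher and 1 lower, near the shares over all tested genes. AT-HSFB2B, a repressor type, had 46.9 and 47.8 CPM in fust1 and 20.6 and 31.3 CPM in Col-0 (0.86). HSF3, one of the activators that start the response, had 5.63 and 3.83 CPM in fust1 and 13.1 and 10.95 CPM in Col-0 (−1.36). Both of these calls ended without Col-0 replicate 1.

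Several genes of the translation machinery had more footprints in heated fust1. Of 18 elongation and release factors, 8 were higher and 1 was lower, with a median of 0.43, against 6.11% and 4.62% of all tested genes. The elongation factor subunit eEF-1Bb1 had 19.3 and 37.8 CPM in fust1 and 10.1 and 6.69 CPM in Col-0 (difference 1.79 ± 0.30, n = 2 each; edgeR adjusted p = 0.00054). TCTP had 62.9 and 96.6 CPM in fust1 and 26.4 and 46.6 CPM in Col-0 (1.13), and the translocase LOS1 rose by 0.43. The 8 rises became 4 without Col-0 replicate 1 and 4 without fust1 replicate 2. AT1G07920 and AT5G60390, both in this list, went in opposite directions (−0.66 and 0.59). Short footprints can fit several near-identical members of the families of elongation factors, ribosomal proteins, histones and HSP70 proteins, and how such reads were counted is not given in the sources used here, so single members are uncertain.

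Among 26 initiation factors, 7 were higher and 3 lower, against 6.11% and 4.62% of all tested genes. EIF3E, a subunit of the scaffold factor eIF3, had 28.7 and 37.0 CPM in fust1 and 14.0 and 12.2 CPM in Col-0 (1.34 ± 0.22, edgeR adjusted p = 0.000167). eIFiso4G1, a plant form of the scaffold that bridges cap and ribosome, had 9.99 and 14.2 CPM in fust1 and 2.94 and 5.48 CPM in Col-0 (1.53), while the related gene eIFiso4G2 was lower, with 53.0 and 58.1 CPM in fust1 and 98.3 and 77.3 CPM in Col-0 (−0.66). EIF4A-2, a cap-complex helicase, was lower by 0.47 on the log2 scale, and the poly(A)-binding proteins PAB2 and PAB8 were higher by 0.54 and 0.71. The 7 rises became 4 without Col-0 replicate 1. Of 42 cytosolic ribosomal protein genes 7 were higher and 0 lower, to be read against the same shares, with a median of 0.19. SAG24 (RPL10C) had 39.2 and 63.5 CPM in fust1 and 15.996 and 21.9 CPM in Col-0 (1.44), and PFL (RPS18A) had 70.8 and 78.4 CPM in fust1 and 36.2 and 50.5 CPM in Col-0 (0.78). The 7 rises depended on single libraries: there was 1 without Col-0 replicate 1, with 3 without fust1 replicate 2 and 16 without fust1 replicate 1. In RNA the median difference of 43 ribosomal protein genes was 0.69, with none called by edgeR and 35 higher at an unadjusted p under 0.05.

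RNA-binding proteins of stress granules and mRNA decay were split, with 6 of 23 higher and 2 lower, against 6.11% and 4.62% of all tested genes. ECT2, a reader of methylated adenine in mRNA, had 11.99 and 15.3 CPM in fust1 and 3.26 and 3.35 CPM in Col-0, a difference of 2.05 ± 0.32 (n = 2 each; edgeR adjusted p = 0.000125). The glycine-rich protein GRP7 had 150 and 216 CPM in fust1 and 60.7 and 105 CPM in Col-0 (1.14). RBP47A, RBP47B, Tudor2 and DCP5 were higher by 0.68 to 0.87. The deadenylase CAF1a (−1.43) and LBA1 (−0.64), the UPF1 helicase of nonsense-mediated decay, were lower. The 6 rises became 3 without Col-0 replicate 2.

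Cellulose synthases are the plasma membrane enzymes that make the main polymer of the cell wall. In fust1 5 of 8 were higher and 0 lower, against 6.11% and 4.62% of all tested genes, with a median of 1.4. All 8 had both fust1 libraries above both Col-0 libraries, which held for 27.4% of all tested genes. CEV1 (CESA3) had 32.0 and 43.2 CPM in fust1 and 12.1 and 6.09 CPM in Col-0, a difference of 2.07 ± 0.24 (n = 2 each; edgeR adjusted p = 4.01e-06). CESA1 had 81.0 and 104 CPM in fust1 and 45.0 and 59.0 CPM in Col-0 (0.83), and CESA5 had 12.7 and 11.9 CPM in fust1 and 2.61 and 6.09 CPM in Col-0 (1.48). CESA2 rose by 0.59. IRX1 (CESA8), of the secondary wall, had 0.727 and 2.19 CPM in fust1 and no count in Col-0, at least 3.08-fold higher with the floor of 3 counts. Summed over the family the level was 193 and 234 CPM in fust1 and 113 and 121 CPM in Col-0. The mRNAs did not follow: the median RNA difference of the 8 was −0.39, and none was called by edgeR (2 had an unadjusted p under 0.05, both lower). The 5 rises became 3 without Col-0 replicate 2 or without fust1 replicate 2.

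Genes of the wound hormone jasmonate went in the opposite direction. Of 21 tested, 13 were lower and 0 higher, against 4.62% and 6.11% of all tested genes. The median difference was −0.94, and 16 had both fust1 libraries below both Col-0 libraries, against 21.8% of all tested genes. The synthesis enzyme AOS, allene oxide synthase, had 59.6 and 58.1 CPM in fust1 and 194 and 129 CPM in Col-0, a difference of −1.45 ± 0.17 (n = 2 each; edgeR adjusted p = 2.41e-06). OPR3, which reduces the hormone precursor, had 22.7 and 27.9 CPM in fust1 and 69.5 and 65.4 CPM in Col-0 (−1.41), and LOX3, AOC1, AOC2 and AOC3 of the same pathway were lower by 0.60 to 1.01 on the log2 scale. Among the JAZ repressors, JAZ6 had 21.6 and 12.02 CPM in fust1 and 66.9 and 51.7 CPM in Col-0 (−1.84), and JAZ1 had 21.4 and 17.2 CPM in fust1 and 87.2 and 43.8 CPM in Col-0 (−1.76). JAZ7, TIFY7 (JAZ9) and TIFY10B (JAZ2) were lower too. MYC2, the transcription factor that JAZ proteins hold in check, had 13.1 and 9.97 CPM in fust1 and 36.6 and 25.0 CPM in Col-0 (−1.43), and its target VSP2, a storage protein, differed by −0.94. The mRNA of these genes had a median difference of −0.79, with none called by edgeR and 8 lower and 1 higher at an unadjusted p under 0.05. The 13 falls became 7 without Col-0 replicate 1, 7 without fust1 replicate 2 and 8 with library totals.

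Glucosinolates are the sulfur-rich defence compounds of the cabbage family. Of 17 genes of their synthesis 8 were lower and 0 higher, against 4.62% and 6.11% of all tested genes, with a median of −0.48. UGT74B1, which adds glucose to the precursor, had 69.2 and 70.6 CPM in fust1 and 168 and 145 CPM in Col-0, a difference of −1.16 ± 0.15 (n = 2 each; edgeR adjusted p = 7.96e-06). SOT17, the sulfotransferase of the last core step, had 4.72 and 6.56 CPM in fust1 and 21.2 and 18.6 CPM in Col-0 (−1.79). CYP79F1 (−1.17) and CYP79B2 (−1.12), which start the methionine and tryptophan branches, were lower as well, as were SUR1, BCAT4, SOT18 and MAM1. The median mRNA difference of the list was −1.01, with none called by edgeR and 11 lower at an unadjusted p under 0.05.

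In the list of sulfur and nitrate genes 9 of 15 were lower and 2 higher, against 4.62% and 6.11% of all tested genes. The median of the list was −0.65. The enzymes that activate sulfate, listed together with the sulfite reductase SIR and picked after their values were seen, were mixed. Of these 8 genes 3 were lower and 1 higher, with a median of 0.08. APR1, a reductase of activated sulfate, had 245 and 177 CPM in fust1 and 479 and 521 CPM in Col-0 (difference −1.25 ± 0.15, n = 2 each; edgeR adjusted p = 5.2e-06). APR3 had 186 and 166 CPM in fust1 and 339 and 334 CPM in Col-0 (−0.93), APR2 fell by 0.48, and the sulfate transporter SULTR1;2 fell by 0.65. LSU1, LSU2 and ATSDI1, genes known to respond to low sulfur, differed by −1.1, −1.04 and −1.71. BGLU28 was lower too. Nitrogen genes were divided. The transporter NRT1.1 fell by 0.91, whereas NIA2, the main nitrate reductase, had 45.1 and 44.7 CPM in fust1 and 15.02 and 18.3 CPM in Col-0 (1.43), and the nitrite reductase NIR1 rose by 0.97.

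Photosynthesis genes showed small falls with exceptions. Of 35 nuclear genes of photosystems and antennae, 9 were lower and 2 higher, against 4.62% and 6.11% of all tested genes. The median was −0.32, and 23 had both fust1 libraries below both Col-0 libraries, against 21.8% of all tested genes. FED A, the main leaf ferredoxin, had 3676 and 3459 CPM in fust1 and 6483 and 5787 CPM in Col-0 (difference −0.78 ± 0.14, n = 2 each; edgeR adjusted p = 0.000745). LHCA4, an antenna protein of photosystem I, went the other way, with 3992 and 3157 CPM in fust1 and 2190 and 2372 CPM in Col-0 (0.65). PETC, of the cytochrome complex, rose by 0.47. The direction of the list hangs on the scaling, since with library totals 1 was lower and 4 higher, and no fall remained without Col-0 replicate 1. In the Calvin cycle, 4 of 13 were higher and 3 lower, to be read against the same shares of called genes. GAPA, a glyceraldehyde phosphate dehydrogenase, had 157 and 165 CPM in fust1 and 75.1 and 93.7 CPM in Col-0 (0.93), and RCA, the activase of Rubisco, rose by 0.53, while RBCS1B, a small subunit of Rubisco, fell by 0.75. The 4 rises became 1 without Col-0 replicate 1.

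The genes of the plastid genome leaned lower. Of 73 tested, 28 were lower and 0 higher, against 4.62% and 6.11% of all tested genes. The median difference was −0.79, and 57 had both fust1 libraries below both Col-0 libraries, against 21.8% of all tested genes. ATCG00490 had 4212 and 3146 CPM in fust1 and 8788 and 8734 CPM in Col-0 (difference −1.25 ± 0.18, n = 2 each; edgeR adjusted p = 5.39e-05). ATCG00280 had 1241 and 907 CPM in fust1 and 2570 and 2345 CPM in Col-0 (−1.19). Summed, plastid genes had 16815 and 12855 CPM in fust1 and 26692 and 28232 CPM in Col-0, and no library of one genotype reached the other. At 22 °C the sums overlapped, with 34844 and 21509 CPM in fust1 and 27743 and 29978 CPM in Col-0. The number called lower was 13 without Col-0 replicate 1, 7 without Col-0 replicate 2, 18 without fust1 replicate 1, 9 without fust1 replicate 2 and 18 with library totals. Of the mitochondrial genome 8 genes were tested with a median of −0.51, and the smallest adjusted p by edgeR was 0.117.

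**Figure D3:**
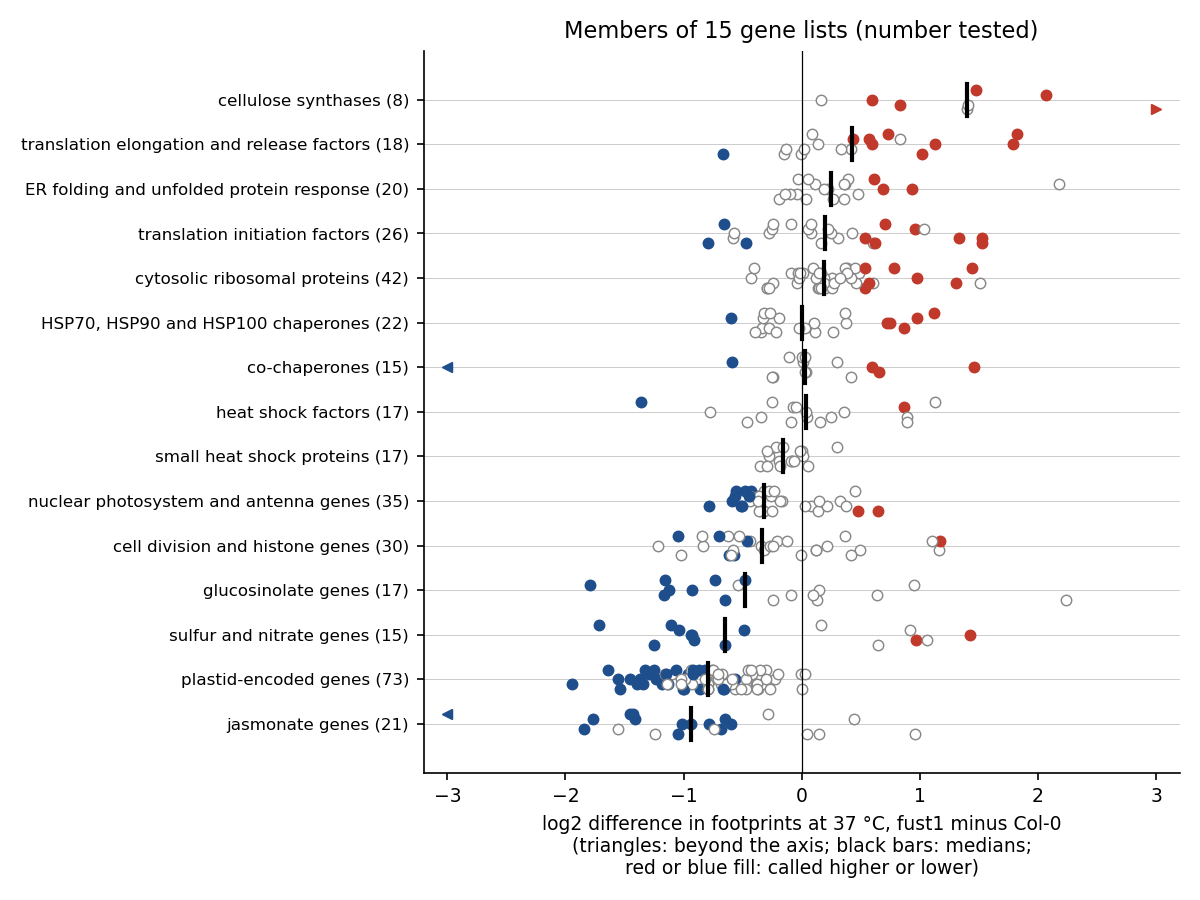
Fitted log2 differences in footprints at 37 °C, fust1 minus Col-0, for the tested members of 15 gene lists, whose sizes stand in parentheses; red or blue fill marks members called higher or lower, bars are medians and triangles lie beyond the axis. Cellulose synthases lie to the right of 0 with a median of 1.4, and jasmonate and plastid-encoded genes to the left with medians of −0.94 and −0.79.

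Genes of cell division and histones leaned lower in footprints at 37 °C, with a median of −0.33. Of 30 tested, 5 were lower and 1 higher, against 4.62% and 6.11% of all tested genes. Their RNA at 37 °C went the other way, with a median of 0.49 and all 30 differences above 0. None was called in RNA by edgeR, and 9 were higher and 0 lower at an unadjusted p under 0.05. In footprints at 22 °C, 10 of 30 were higher and 0 lower, against 2.31% and 2.07% of all tested genes. AT5G10400, a member of the list, had 9.99 and 12.7 CPM in fust1 and 24.8 and 22.5 CPM in Col-0 (difference −1.05). MCM5, of the replication helicase, had 31.4 and 32.4 CPM in fust1 and 54.5 and 49.0 CPM in Col-0 (−0.70), and the ribonucleotide reductase genes RNR1 and TSO2 fell by 0.57 and 0.46. CDKB2;1, a cell cycle kinase, rose by 1.17. The falls in footprints at 37 °C numbered 1 without Col-0 replicate 1, 2 without fust1 replicate 1 and 1 with library totals. Light, auxin and growth genes had 4 falls and 1 rise of 18 at 37 °C, to be read against 4.62% and 6.11% of all tested genes. The expansin EXPA8 had 38.3 and 22.3 CPM in fust1 and 92.4 and 81.5 CPM in Col-0 (−1.54), the auxin repressors IAA1, IAA19 and IAA2 were lower, and the growth regulator PIF4 was higher by 0.87. The 4 falls became 2 without Col-0 replicate 1 or without fust1 replicate 2.

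The remaining response lists were mixed, with shares to be read against the 6.11% higher and 4.62% lower over all tested genes. Of 27 genes of abscisic acid, drought and cold, 3 were lower and 0 higher. LTI78 (RD29A) had 85.9 and 74.3 CPM in fust1 and 173 and 138 CPM in Col-0 (difference −0.96 ± 0.15, n = 2 each; edgeR adjusted p = 0.000162), and the others were LTI65 (RD29B) and DREB2A. The call of LTI65 ended without Col-0 replicate 2. That of DREB2A ended without Col-0 replicate 1, without fust1 replicate 2 and with library totals. Salicylic acid and immunity genes had 2 rises and 2 falls of 21. The transcription factor WRKY70 had 160 and 128 CPM in fust1 and 291 and 294 CPM in Col-0 (−1.02), and EDS16 (ICS1), the synthesis enzyme of salicylic acid, fell by 0.72. The calls of EDS16 and CBP60G ended without Col-0 replicate 1. CBP60G and PR1 were higher at low levels, PR1 with 4.54 and 5.74 CPM in fust1 and 0.653 and 0 CPM in Col-0. Of 17 clock genes, PRR7 had 28.9 and 24.3 CPM in fust1 and 12.4 and 9.74 CPM in Col-0 (1.26), ZTL was also higher and GI lower, both calls that ended without Col-0 replicate 1. Oxidative stress genes had 1 rise (CAT3) and 2 falls (GSTU19 and STZ) of 17, all 3 of which ended without Col-0 replicate 1. Of 15 ubiquitin and proteasome genes RPT5A rose by 1.09 and RPN10 fell by 0.47, the second a call that ended with each of the 4 libraries at 37 °C left out in turn.

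The tissue marker lists below held 7 to 13 tested genes, too few for their shares to be weighed against all tested genes. Of all tested genes, 6.11% were called higher and 4.62% lower. Of 13 root markers, with a median of 0.50, 1 was higher (IRT1, the iron transporter, by 1.5) and 1 lower (TIP2;3), and their summed level was 154 and 130 CPM in fust1 and 141 and 171 CPM in Col-0. Shoot epidermis and stomata markers had 0 rises and 2 falls of 13 (SDD1 and TMM) and a median of −0.25, with sums of 251 and 300 CPM in fust1 and 333 and 304 CPM in Col-0. Both of these falls ended without Col-0 replicate 1. Vascular markers had 1 rise (IRX1) and 1 fall (XCP2) of 7, and both calls ended without Col-0 replicate 1. Their median was 0.58 in footprints and −1.16 in RNA, and 5 of 7 had both fust1 libraries above both Col-0 libraries, against 27.4% of all tested genes. Their summed level, most of it XCP2, was lower in fust1 on the TMM scale, with 278 and 306 CPM in fust1 and 358 and 370 CPM in Col-0. As shares of all counts the sums overlapped, with 0.0156% and 0.0188% in fust1 and 0.0175% and 0.0197% in Col-0. The call of XCP2 also ended with library totals. Shares of the shoot epidermis and stomata list overlapped too, with 0.0141% and 0.0184% in fust1 and 0.0163% and 0.0162% in Col-0. The part of tissue makeup in the other differences was not tested.

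At the level of mRNA far fewer differences passed. Of 19340 genes tested in RNA at 37 °C, 3 (0.0155%) were higher in fust1 and 7 (0.0362%) lower by edgeR, and 2821 had an unadjusted p under 0.05. DESeq2 called 101 higher and 217 lower. These numbers are tied to 1 library: without Col-0 RNA replicate 1, 1043 genes were higher and 635 lower. All 7 falls in RNA, which were SQN, AT5G11330, EXPA8, AT2G44130 (KMD3), SHM7, LSU1 and MSRB6, were also called lower in footprints. SHM7, a serine hydroxymethyltransferase, had 28.7 and 16.9 RNA CPM in fust1 and 72.4 and 84.5 in Col-0, and LSU1 had 5.71 and 3.83 in fust1 and 19.9 and 21.3 in Col-0. Of the 3 rises, LINC3 (CROWDED NUCLEI 3) was also higher in footprints, AT4G12490 was not called there, and AT1G64795 was not tested. The genes called lower in footprints had a median RNA difference of −0.50 with 18.3% of 835 above 0, whereas those called higher had a median of 0.11 with 60.5% of 1122 above 0, against 0.01 over all genes. Across 17816 genes the differences in footprints and in RNA had a Pearson's r of 0.148 and a Spearman's rho of 0.19, given as a description since genes are not independent.

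**Figure D4:**
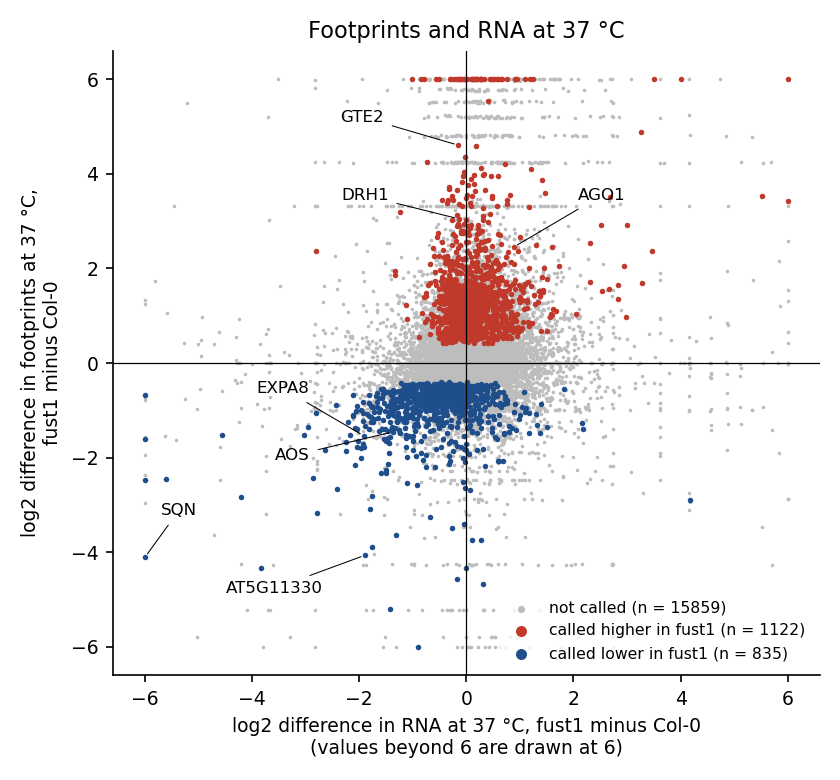
Log2 difference, fust1 minus Col-0, in RNA (horizontal axis) and in footprints (vertical axis) at 37 °C for the genes tested in both; red and blue points were called higher or lower in footprints, and values beyond 6 are drawn at 6. Red points gather around an RNA difference of 0 (median 0.11), while blue points reach to the left (median −0.50).

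Translational efficiency (TE), the footprint difference beyond the RNA difference, was tested as the interaction of assay and genotype over all 16 libraries. Of 17816 genes, 195 (1.09%) had a higher TE in fust1 at 37 °C and 32 (0.18%) a lower one, and 2881 had an unadjusted p under 0.05. This test shares its footprint libraries with the comparison above. The 5 rises with the smallest p were GTE2 (4.74, edgeR adjusted p = 0.000324), DRH1 (3.18), AT2G16940 (2.51), CEV1 (2.38) and ATR2, a reductase of cytochromes P450 (2.35). ATR2 had 39.2 and 55.3 footprint CPM in fust1 and 13.7 and 15.8 CPM in Col-0, with 167 and 152 RNA CPM in fust1 and 224 and 288 in Col-0. The named falls were 3 members of the cell division and histone list, AT3G46320 (−4.22), AT1G09200 (−1.70) and AT5G10400 (−1.94), the mitotic cyclin CYCB1;1 (−3.00) and AT5G11330 (−2.18). CYCB1;1 had 10.9 and 10.5 footprint CPM in fust1 and 15.67 and 16.4 CPM in Col-0, but 5.58 and 5.81 RNA CPM in fust1 and 1.57 and 0.463 in Col-0. AGO1 (1.56), J3 (1.57), CR88 (1.04), ECT2 (1.64), CESA5 (1.75), PRR7 (1.42), SVR3 (2.55), AGT3 (3.04) and BCB (2.09) passed as well. AOS, OPR3, UGT74B1 and APR1 had TE differences between −0.09 and 0.17, none of which passed the test. The counts of TE rises and falls were 13 and 1 without Col-0 footprint replicate 1, 719 and 560 without Col-0 RNA replicate 1, and 2 and 0 with only the groups compared. Each of the 5 named falls lost its call in that last fit, and so did most of the rises named here, since only 2 rises remained. All of the named falls but AT3G46320 also lost their call without Col-0 footprint replicate 1.

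At 22 °C, 426 (2.31%) of the same 18445 genes were higher in fust1 and 382 (2.07%) lower. Which temperature had more calls depended on the fit. With only the groups compared in it, 635 genes were higher and 595 lower at 37 °C, against 1055 and 894 at 22 °C. Without Col-0 replicate 1 of 37 °C the counts were 515 and 265 at 37 °C, against 600 and 417 at 22 °C. Of the 1127 genes higher at 37 °C, 55 (4.88%) were also higher at 22 °C, which is 12.9% of the genes higher at 22 °C, and 65 (5.77%) were lower there, which is 17.0% of the genes lower at 22 °C. Of the 853 lower at 37 °C, 71 (8.32%) were lower at 22 °C as well, or 18.6% of that list, and 28 (3.28%) were higher, or 6.57% of that list. AGO1 had 369 and 356 CPM in fust1 and 139 and 153 CPM in Col-0 at 22 °C (difference 1.32, edgeR adjusted p = 1.12e-06). AT5G11330 had 1.79 and 1.36 CPM in fust1 and 23.1 and 25.9 CPM in Col-0 (−3.96), and EXPA8, BCB and CYP712A1 also kept their called direction. Across the 18445 genes the differences at both temperatures had a Pearson's r of 0.0164 and a Spearman's rho of −0.0287, again as a description.

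The difference between temperatures was tested as the interaction of heat and genotype, where 1012 genes (5.49%) had a higher value in fust1 and 593 (3.21%) a lower one. It contains the libraries at 37 °C and is no separate support. Several genes stood on opposite sides at 22 °C and 37 °C. LBD41, a LOB-domain transcription factor known for its induction by low oxygen, had 208 and 242 CPM in fust1 and 70.2 and 68.8 CPM in Col-0 at 37 °C, but 7.74 and 10.001 CPM in fust1 and 12.6 and 14.7 CPM in Col-0 at 22 °C. NIA2 had 145 and 120 CPM in fust1 and 271 and 225 CPM in Col-0 at 22 °C, the reverse of its order in heat. AT1G74470, geranylgeranyl reductase, had 99.2 and 112 CPM in fust1 and 33.6 and 47.5 CPM in Col-0 at 37 °C, and 612 and 499 CPM in fust1 and 1449 and 975 CPM in Col-0 at 22 °C. In the other direction, the zinc finger gene STZ had 139 and 111 CPM in fust1 and 177 and 185 CPM in Col-0 at 37 °C, but 18.0 and 15.9 CPM in fust1 and 5.47 and 6.36 CPM in Col-0 at 22 °C. APR3 averaged 140.1 CPM in fust1 and 85.4 CPM in Col-0 at 22 °C (n = 2 each), the reverse of its order in heat, and ERF2, AT5G21940 and RAV2 followed the same course. As lists, cellulose synthases had 5 of 8 with a higher interaction and 0 with a lower one, jasmonate genes 1 and 9 of 21, plastid genes 0 and 23 of 73, and cell division genes 0 and 12 of 30. Cytosolic ribosomal proteins had 1 and 5 of 42, with 21 of 42 already higher in fust1 at 22 °C, against 2.31% of all tested genes.

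**Figure D5:**
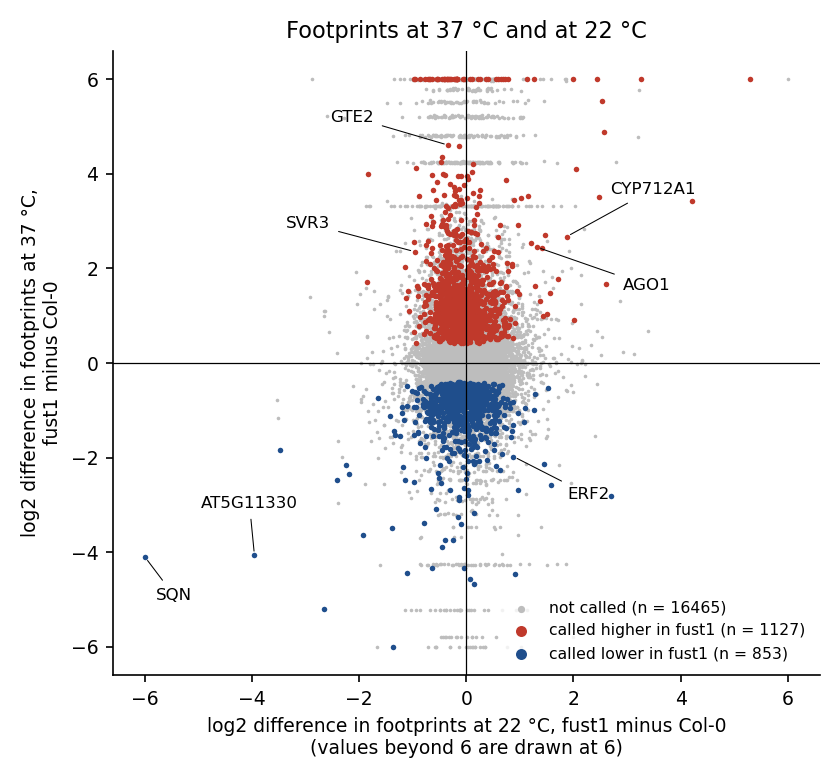
Log2 difference in footprints, fust1 minus Col-0, at 22 °C (horizontal axis) and at 37 °C (vertical axis) for the 18445 tested genes; red and blue points were called higher or lower at 37 °C, and values beyond 6 are drawn at 6. SQN, AT5G11330, AGO1 and CYP712A1 are displaced in the same direction at both temperatures.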

How the data were processed

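Members of the gene lists were chosen with earlier results of these data known. For each gene the authors deposited raw counts of reads, all whole numbers and not normalized, as the values show. Tools named in the submitters' processing notes are Bowtie 1.0.1, featureCounts 1.6.2, STAR 2.7.3a and fastp 0.19.7, with TAIR10 as the build; which tool served which assay, and the counted feature, are not given in the sources used here. Low genes were removed per assay with filterByExpr at a minimum count of 10. TMM scaling followed, and edgeR 4.0.16 (R 4.3.3) gave the robust quasi-likelihood test with Benjamini-Hochberg adjustment over all tested genes and a threshold of 0.05. All 8 footprint libraries entered 1 fit, from which the differences at 37 °C, at 22 °C and between them were drawn, and all 16 entered the fit of TE. An SE is the size of the log2 difference over the root of its F. With 2 libraries a group the smallest p of an exact permutation test is 0.333, so none was used. Depth, given above as total counts, limits low genes most, and bounds cover counting error only. Replicates of a group differed beyond counting noise. Named were up to 12 called rises and 12 called falls of at least 10 CPM in the higher group, without overlap between the genotypes' libraries. Also named were 3 members a list by smallest p, 5 per direction for TE and for heat by genotype, the 5 highest levels and SQN. Other list members that passed are named as well. A RefSeq name table gave the symbols and nothing else. Alternatives were DESeq2 1.42.0, other scalings and filters, thinned counts, a replicate term and left-out libraries. The level of FUST1 and sequences of members are not reported here.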

Additional observations from a re-analysis of the deposited data

Results flagged for a closer look

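The genotype difference in footprints at 37 °C, fust1 minus Col-0, was set against the same difference at 22 °C. The numbers below are the first minus the second, on the log2 scale, for 75 named genes in which this interaction passed edgeR's test at an adjusted p under 0.05, of which 41 were positive and 34 negative. A positive number means that fust1 stood higher relative to Col-0 in heat than at 22 °C. All of them use the libraries at 37 °C that also gave the genotype difference, so they are no separate support for it. No explanation was tested.

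Among the largest rises at 37 °C the interaction was positive for GTE2 (4.94), AT4G33720 (2.40), DRH1 (3.39), AT2G16940 (2.71), AT3G07660 (2.99), AGO1 (1.14), AGT3 (3.08), AT4G10270 (2.23) and SVR3 (3.32). It was also positive for SQN (3.92), whose footprints in fust1 at 22 °C (0 and 0.0366 CPM) lay under the floor of 3 counts, so that this fitted value depends on the prior count and is no bound. Chaperones and folding sensors with a positive value were CR88 (0.884), cpHsc70-2 (0.68), J3 (1.41) and BZIP28 (0.936). Genes of translation and RNA binding were SAG24 (1.17), AT1G36730 (1.33), EIF3E (1.19), eIFiso4G1 (1.71), eEF-1Bb1 (1.67), ECT2 (2.44) and GRP7 (1.06). In photosynthesis and carbon fixation the values were LHCA4 (1.62), GAPA (1.48), AT3G60750 (0.818), RCA (1.04) and AT1G74470 (2.51). Cell wall and small RNA genes were CEV1 (2.48), CESA1 (1.25), CESA5 (1.48), IRX1 (8.02) and SPL11 (7.21), although IRX1 and SPL11 had no count in Col-0 at 37 °C, so that their fitted values are no bound. The others were CAT3 (1.09), CBP60G (2.24), NIA2 (2.33), PRR7 (1.67), ZTL (1.35), RPT5A (1.28), PHO1 (2.85), ATR2 (2.1), LBD41 (2.31) and SHV3 (2.46).

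The interaction was negative for these largest falls at 37 °C: AT1G14250 (−2.01), AT4G22485 (−2.06), CYP94B1 (−1.80), ERF13 (−2.89), AT3G50800 (−3.59), ERF2 (−2.86), GSTF11 (−2.15), ATCG01010 (−1.91), EXO70H7 (−1.63) and JAZ6 (−1.82). In hormone and stress lists it was negative for AT5G51440 (−0.982), LTI78 (−1.16), LTI65 (−4.15), STZ (−2.06), WRKY70 (−1.24), AOS (−1.23) and OPR3 (−1.22). RAV2 (−1.52) and AT5G21940 (−1.94), named for their interaction, were negative too. In glucosinolate and sulfur genes the values were UGT74B1 (−1.1), CYP79F1 (−0.887), SOT17 (−1.64), APR1 (−1.50) and APR3 (−1.65). Cell division, auxin and stomata genes were AT5G10400 (−1.65), AT1G09200 (−1.20), AT3G46320 (−1.47), MCM5 (−0.92), IAA1 (−0.836), SDD1 (−2.13) and TMM (−1.08). The plastid genes were ATCG00490 (−1.07), ATCG00280 (−1.07) and ATCG01100 (−1.62).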

How the results depend on the processing

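At 37 °C the footprint counts (1127 higher, 853 lower in fust1) moved to 635 higher with only the groups compared in the fit, to 1838 and 337 with library totals, and to 726 and 287 at 2-fold or more. They stayed within 1.5 times under DESeq2 (982 and 991), RLE size factors, no filter, nuclear genes, counts thinned to the smallest total or effective size (the second chosen after seeing the data) and a fit without the heat lists. Leaving out 1 library gave 515 to 1563 higher and 265 to 747 lower. At 22 °C (426 and 382) there were 579 lower without the filter and 1055 and 894 with only the groups compared, and 77 to 799 and 64 to 572 with 1 library left out. The interaction of heat and genotype ranged over 482 to 1328 and 219 to 559. RNA at 37 °C (3 higher, 7 lower) gave 101 and 217 with DESeq2, 61 and 134 without the filter, and 0 and 1 with only the groups compared, with ranges of 0 to 1043 and 1 to 635. TE (195 and 32) gave 20 lower with RLE, 372 and 131 with DESeq2, 2 and 0 with only the groups compared, and ranges of 13 to 719 and 1 to 560. The cause of these moves was not tested. Of 100 named calls at 37 °C, 63 held in every setting and 37 ended in at least 1, of which 35 without Col-0 footprint replicate 1, 21 without fust1 replicate 2 and 13 with library totals. HSP90.1 and AT2G29500, neither called, turned direction with library totals (log2 differences of 0.0145 and 0.0122). HSP90.1 also did without Col-0 footprint replicate 1 (0.0347), and AT2G29500 without fust1 footprint replicate 2 (0.0122). Replicate numbers showed no pairing of the footprint samples, where deviations of same-numbered libraries correlated between −0.0659 and 0.0569. In RNA the correlations lay between −0.26 (fust1 at 37 °C and at 22 °C) and 0.205 (both genotypes at 37 °C), with 0.157 for both genotypes at 22 °C. Whether RNA replicates were paired was not tested further. With a replicate block the counts were 1104 and 822 for footprints, 0 and 1 for RNA and 75 and 12 for TE. Precision is lowest for genes with few counts. Where 1 library is left out, the lone sample is assumed to vary like the other groups.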

Other observations

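Some gene groups outside the lists above were picked after their values were seen, so they are descriptions only. Enzymes of the methyl cycle, which recycle the donor of methyl groups, had 4 of 11 genes with more footprints in fust1 at 37 °C and 1 with fewer by edgeR's test, against 6.11% and 4.62% of all tested genes. HOG1, a hydrolase of adenosylhomocysteine, had 52.0 and 69.8 footprint CPM in fust1 and 13.7 and 13.4 CPM in Col-0. SAHH2, the other gene of this enzyme, went the other way, with 96.3 and 119.8 CPM in fust1 and 149.5 and 156.1 CPM in Col-0. ATMS1, a methionine synthase, had 364 and 502 CPM in fust1 and 145 and 235 CPM in Col-0, and SAM1 had 29.6 and 33.5 CPM in fust1 and 7.83 and 14.3 CPM in Col-0. SAM-2 was also higher. How reads shared by related genes were counted is not given in the sources used here, so single values of HOG1, SAHH2, SAM1 and SAM-2 are uncertain.

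Plastid chaperonins, the barrel-shaped folding machines of the chloroplast, had 3 of 8 genes higher and 0 lower, against 6.11% and 4.62% of all tested genes. CHL-CPN10 lay lower in both fust1 libraries, with 107 and 101 CPM in fust1 and 152 and 112 CPM in Col-0, and was not called (edgeR adjusted p = 0.153), while its interaction of heat and genotype was −0.68 (edgeR adjusted p = 0.0442). CPN60A had 370 and 435 CPM in fust1 and 183 and 190.2 CPM in Col-0, while its RNA had 2272 and 2545 CPM in fust1 and 2420 and 2166 CPM in Col-0. CPN60B had 24.3 and 25.1 CPM in fust1 and 6.20 and 8.82 CPM in Col-0. Of 8 genes, made up of enzymes that activate sulfate and the sulfite reductase SIR, APS3, AKN2 and APK were lower and APS4 was higher. The median over this list was 0.08. APS3 had 107 and 92.1 CPM in fust1 and 266 and 248 CPM in Col-0, while APS4, of the same family, had 54.0 and 60.1 CPM in fust1 and 18.0 and 26.2 CPM in Col-0. In chlorophyll synthesis, AT1G74470, CHLM and ALB1 of 13 genes were higher and GUN4 was lower, with 172 and 169 CPM in fust1 and 254 and 295 CPM in Col-0.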
